A study of Mus musculus with 52 samples.

Results

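The arrays of N-ethyl-N-nitrosourea (ENU), a direct alkylating mutagen, were 8 of the 52 arrays of the series. There were 4 arrays of livers treated with ENU, at 4 h, 20 h, 14 days and 28 days after a single dose of 150 mg/kg, and 4 arrays of saline-treated livers labelled as the ENU control of the same time. They were chosen by their titles, not by any measured value. Every array held total RNA pooled from the livers of 5 male B6C3F1 mice, which were 9 weeks old at dosing by intraperitoneal injection. B6C3F1 is an F1 hybrid strain widely used in carcinogenicity bioassays. A pool averages its mice, so no time had a replicate and the spread between mice was not measured. The series also held 12 further saline control arrays, 3 at each time, which served dimethylnitrosamine (DMN control), dipropylnitrosamine (DPN control) and a set with ethanol and phenobarbital (Saline control). With the ENU controls they made 16 saline arrays, 4 at each time, and the differences among the 3 further pools of each time gave the spread against which ENU and its own control were set. The study asked which liver genes tell genotoxic from non-genotoxic chemicals, and the question here was which genes differed after ENU at each time and whether the difference lasted.

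ENU transfers an ethyl group to DNA without metabolic activation, mainly to ring nitrogens and to oxygens of the bases, and ethylated guanine and thymine mispair at replication. Damage that blocks replication or transcription activates kinases that stabilise p53, a transcription factor. p53 induces genes that arrest the cell cycle, feed back on p53 itself, trigger cell death or aid repair, and the liver of an adult mouse is mostly made of hepatocytes that rarely divide. DMN and DPN are nitrosamines, which alkylate DNA after activation by cytochrome P450 enzymes in the liver.

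Values are log2 signals of probe sets after each array was scaled to a common median, with a floor at a log2 signal of 5.02 below which values were set to the floor. A ratio is the log2 signal of the ENU array minus that of the ENU control of the same time, and a ratio of 1 is a 2-fold difference. The ratio was tested with limma in a fit of 20 arrays, in which the lone ENU and ENU control arrays were assumed to vary like the other saline controls. The median standard error (SE) of a ratio was 0.37, so differences near 2-fold were seldom detectable. In simulated data 0, 137 and 187 of 200 probe sets changed by a log2 value of 1, 2 and 3 were recovered at 4 h. The simulated arrays had independent normal noise with the spread of the other saline controls. They held a single mean per probe set and no floor or difference between times or control sets. The assumption of the fit was thus built in, and recovery in the real arrays was not measured. The two-sided p-values then measure the spread between pools alone. Over all probe sets tested, 6.39%, 3.51%, 11.1% and 2.54% had an unadjusted p under 0.05 at 4 h, 20 h, 14 days and 28 days.

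The 12 measured of 16 hepatocyte markers had median log2 signals of 12.8 to 13.4 in the 8 ENU and ENU control arrays, and the 15 measured lymphocyte markers had medians of 5.40 to 5.75, near the floor. At 4 h the 4 saline controls differed in p53 target genes, of which Cdkn1a, Ccng1, Phlda3 and Aen were highest in the DMN control. At 20 h the Saline control had a log2 signal of 11.48 for Cyp2b10, the P450 gene that phenobarbital induces, while the other 3 controls lay between 6.80 and 7.26. The label of that array is therefore in doubt, but no fit left out this array alone. Here and below, a fit without a control left out that control set at all 4 times, which also changed the spread. Results without the Saline control set are given under the processing settings.

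The p53 target genes were among the largest early differences. Their leading member was Cdkn1a, which encodes p21, the inhibitor of cyclin-dependent kinases that arrests the cell cycle. Its promoter is shown because p53 binds DNA as a pair of short repeats built around CATG, and a stretch of this kind lies close to the start of the gene. The sequence is from RefSeq on GRCm38.p6, chr17:29090729-29090978 on the plus strand, the 250 bases before the start of transcription. Capitals mark a pair of CATG cores 6 bases apart, which begins 48 bases before the start.
Cdkn1a: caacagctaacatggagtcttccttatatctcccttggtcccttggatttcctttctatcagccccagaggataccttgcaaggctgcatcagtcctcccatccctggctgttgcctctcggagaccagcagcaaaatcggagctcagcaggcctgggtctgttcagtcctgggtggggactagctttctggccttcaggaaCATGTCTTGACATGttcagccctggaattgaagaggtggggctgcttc
The letters CATGNNNNNNCATG, searched on both strands, occurred in 137 of 27025 mouse promoters of this length (0.507%). Of the 25 listed genes of p53-dependent arrest and feedback, 22 had a promoter in the table, and Cdkn1a was the 1 that held these letters. A match of letters is a description and not a measurement of binding.

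Cdkn1a had a log2 signal of 9.64 with ENU at 4 h, against 5.95 in its own control and 7.75, 6.34 and 5.70 in the DMN, DPN and Saline controls. The ENU pool lay above all 4 controls. The ratio of 3.68 (SE 0.73), a 12.8-fold difference, had an adjusted p of 0.18 against the own control. Set against the mean of the 4 saline controls, with all 16 in the spread, Cdkn1a rose by 3.20 (SE 0.59, limma, adjusted p = 0.0422). It passed without the DMN control set, whose 4 h array was the highest of the 4, by 3.64 (limma, adjusted p = 0.00594). It did not pass without the ENU, DPN or Saline control set (adjusted p = 0.12, 0.26 and 0.064). At 20 h ENU stood at 8.65, while the own control and the DPN control were at the floor and the DMN and Saline controls were at 5.98 and 6.19. The pools again did not overlap, and the difference from the own control was at least 3.63. At 14 days the ENU value of 6.48 exceeded an own control of 5.66 and others of 5.17, 5.02 and 5.04. At 28 days ENU was at 7.36, the own control at 5.26, and the others at 5.46, 6.00 and 6.19, a ratio of 2.10 with an adjusted p of 1. Cdkn1a thus lay above all 4 controls at each of the 4 times, although no ratio to the own control passed the test.

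Ccng1 encodes cyclin G1, a p53 target that acts in the feedback on Mdm2. It had a log2 signal of 9.26 with ENU at 4 h, against 7.99 in its own control and 8.67, 8.14 and 8.07 in the others. At 20 h the values were 10.09 with ENU and 8.33, 7.99, 8.10 and 7.97 in the controls. The ENU pools were above every control at both times, most clearly at 20 h. Ccng1 rose by 2.00 at 20 h against the mean of the 4 controls (limma, adjusted p = 0.00165), and a second probe set of the gene rose by 1.85 at 4 h (adjusted p = 0.0235) and 2.01 at 20 h (adjusted p = 0.0162). The 20 h call of the first probe set was lost without the DPN control (adjusted p = 0.069), that of the second also without the ENU control (0.084 and 0.081), and the 4 h call without the ENU, DPN or Saline control (0.12, 0.15 and 0.064). Against its own control alone the ratios of 1.28 and 1.77 did not pass (adjusted p = 0.30 and 0.18). By 14 days the ratio was 0.49 and by 28 days 0.01.

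Trp53inp1, a p53-induced gene whose product promotes p53 activity, had a log2 signal of 10.56 with ENU at 4 h and of 8.42, 8.64, 9.08 and 8.43 in the ENU, DMN, DPN and Saline controls. It rose by 1.92 against their mean (limma, adjusted p = 0.0235), a call lost without the ENU or the Saline control (adjusted p = 0.12 and 0.064). The values were 9.78 with ENU and 8.29 to 8.65 in the controls at 20 h, and the ratios of the later times were 0.71 and -0.37. Phlda3, a repressor of Akt signalling, was at 8.68 with ENU at 4 h against 7.09, 7.90, 6.92 and 6.67. At 20 h it was at 8.76 against 7.21, 6.36, 6.66 and 6.80. Phlda3 rose by 2.00 against the mean of the controls at 20 h (limma, adjusted p = 0.0467), a call kept without the DMN control alone (adjusted p = 0.0131, and 0.062 to 0.34 without 1 of the others). Its ratios were 0.48 at 14 days and 0.04 at 28 days. These genes stood apart from the controls in the first day and lay within or near their range later.

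**Figure D1:**
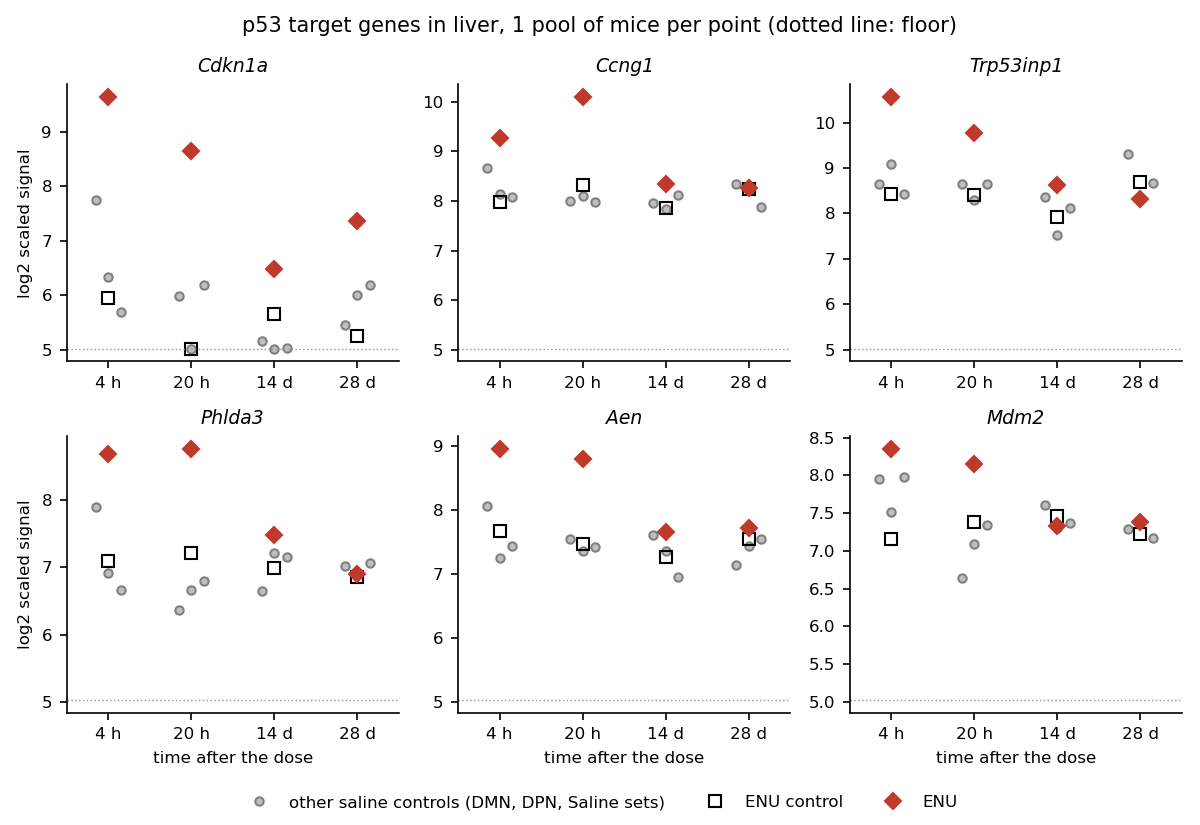
Log2 scaled signal (vertical axis) of 6 p53 target genes at 4 h, 20 h, 14 days and 28 days after the dose (horizontal axis), where each point is 1 pool of 5 mice. Filled diamonds are ENU, open squares the ENU control, grey circles the DMN, DPN and Saline controls and the dotted line the floor at 5.02; ENU lay above all 4 controls in every panel at 4 h and 20 h, and for Cdkn1a at 14 and 28 days too.

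Further p53-induced genes, of the feedback, cell death and repair lists, did not pass the test at 4 h or 20 h. Mdm2, the ubiquitin ligase that degrades p53, had log2 signals of 8.35 with ENU at 4 h and of 7.16, 7.95, 7.52 and 7.97 in the controls. Aen, a nuclease gene induced by p53, had 8.95 against 7.66, 8.06, 7.24 and 7.43 at 4 h. At 20 h Aen had 8.79 against 7.46, 7.54, 7.36 and 7.42. For both genes the ENU pool was the highest, as it was for Mdm2 at 20 h with 8.15 against 6.64 to 7.39. Btg2, an anti-proliferative gene, was at 8.65 with ENU at 4 h against 7.27, 7.77, 7.84 and 7.25, and its ratio went from 1.38 at 4 h to 0.33 at 20 h. Ddit4, an inhibitor of mTOR signalling, had a ratio of 2.07 at 4 h and 0.99 at 20 h. Ephx1, which encodes microsomal epoxide hydrolase, showed a later pattern. Its ratio was 0.11 at 4 h and 0.95 at 20 h, where ENU was at 12.25 and the controls at 11.30 to 11.41.

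Over the list of arrest and feedback genes, 8 of the 22 measured members lay at least 2-fold above their own control at 4 h and 7 at 20 h, where 2.04% and 1.3% of all 10755 genes did. At 14 and 28 days 1 member did, against 3.2% and 1.03% of all genes. The member was Plk3 at 14 days, with a ratio of 2.41, and Cdkn1a at 28 days, with 2.10. Plk3 had ratios of 1.52, 0.79 and -0.57 at 4 h, 20 h and 28 days. The list's median ratio was 0.46 at 4 h, 0.55 at 20 h, 0.26 at 14 days and 0.01 at 28 days, beside medians of 0.01, 0.00, 0.11 and 0.00 over all genes. Between pairs of saline controls the list's median reached 0.31, 0.08, 0.26 and 0.18 in size, so the values of 14 and 28 days did not exceed it. The counts above all 4 controls were 14, 13, 7 and 3, beside 30.3%, 24.1%, 24.1% and 19.2% of all genes. No member passed the test against its own control, while 6 at each of 4 h and 20 h had an unadjusted p under 0.05 and a higher value (3.58% and 1.72% of all probe sets did). Gtse1, Gdf15 and Trp53 were not measured: 23 of the 25 listed genes had a probe set with 1 symbol, and 22 had one above the filter.

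The measured genes of p53-linked cell death had smaller ratios. Bax, Pmaip1, Tnfrsf10b, Eda2r, Trp53i11 and Dram1 were listed but not measured, so the values leave these genes out. Of 13 measured of 19, 1 member lay 2-fold higher and 2 lay 2-fold lower at 4 h, 2 lay higher at 20 h and none either way later, with medians of -0.01, 0.03, 0.23 and 0.02. Of all genes 2.04%, 1.3%, 3.2% and 1.03% lay 2-fold higher and 1.79%, 1.54%, 2.12% and 1.13% lay 2-fold lower at the 4 times. Fas, which encodes a death receptor, had a log2 signal of 5.09 with ENU and 6.89 in its own control at 4 h. Apaf1, the core of the apoptosome, had 6.18 with ENU at 20 h against 5.13, 5.34, 5.66 and 5.02, a ratio of 1.05. The 14 measured genes of p53-induced repair and metabolism had medians of 0.08, 0.11, 0.36 and -0.01. In neither list did a member pass the test, and the difference between the lists was not tested.

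The genes that repair alkylated bases had medians near 0 at every time. The 20 measured of 25 genes of alkylguanine, base excision and mismatch repair had medians of -0.18, 0.05, 0.00 and 0.04. Of them 1 lay 2-fold lower at 4 h and 1 2-fold higher at 14 days (1.79% and 3.2% of all genes did). The 21 measured of 28 genes of the damage checkpoint and strand break repair had medians of -0.10, -0.07, 0.04 and -0.06. The 25 measured of 36 replication and mitosis genes had medians of 0.14, 0.00, -0.18 and 0.00. Pcna, the sliding clamp of DNA polymerases and also a p53 target, was the member 2-fold higher at 4 h, with 9.17 with ENU against 7.92, 8.75, 8.63 and 8.79. It exceeded its own control by 1.24 and the other controls by less. No member of these 3 lists passed the test at any time.

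**Figure D2:**
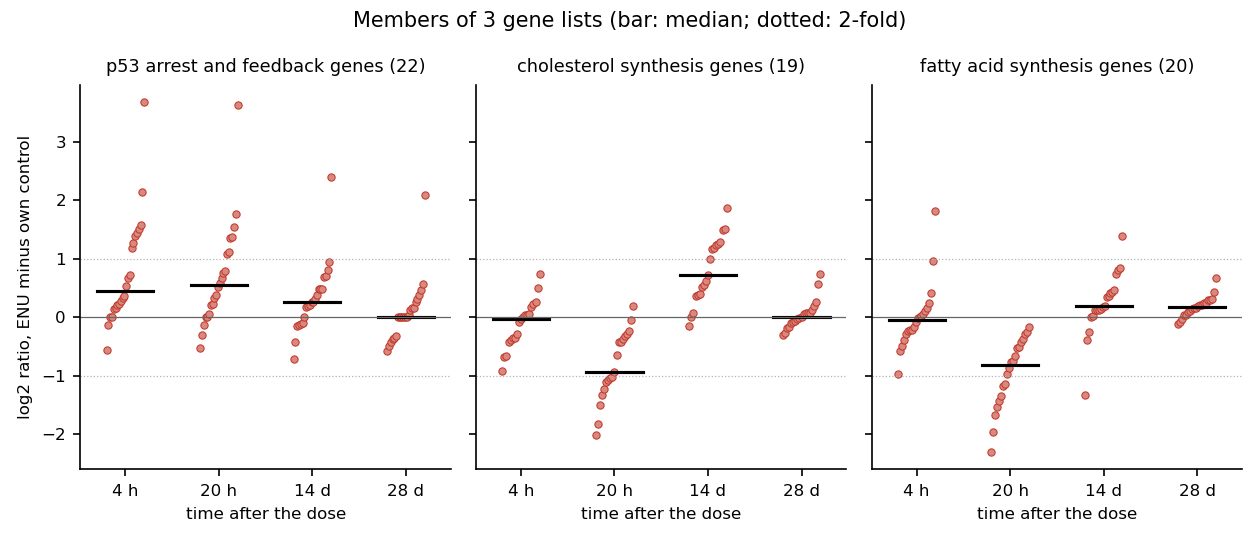
Log2 ratio of ENU to its own control (vertical axis) for each measured member of 3 gene lists at 4 h, 20 h, 14 days and 28 days (horizontal axis), with a bar at the median of the list and dotted lines at 2-fold. The p53 arrest and feedback genes had medians of 0.46 and 0.55 at 4 h and 20 h, and the cholesterol and fatty acid synthesis genes had medians of -0.93 and -0.81 at 20 h.

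Only 2 of 15965 probe sets (0.0125%) passed the test against the own control at 4 h, and both fell. They were probe sets of Lpp and Trip10. Lpp encodes a LIM domain protein of focal adhesions and spans chr16:24393350-24992578, a gene of 599 kb. Its log2 signal was 5.89 with ENU at 4 h, against 8.56 in its own control and 8.42, 8.28 and 8.58 in the others. The controls lay close together and ENU lay far below them. Lpp fell by 2.68 (SE 0.32, limma, adjusted p = 0.0116), an expression ratio to its own control of 0.156. With the spread taken without the Saline control Lpp still passed (adjusted p = 0.0431), and without the DMN or the DPN control it did not (adjusted p = 0.15 and 0.22). The other 3 probe sets of Lpp had ratios of -0.71, -2.13 and -1.51 and did not pass (adjusted p = 0.82, 0.12 and 0.18). At the later times the ratio of the first probe set was -0.21, 0.05 and 0.36. The difference between its 4 h and 20 h ratios, -2.46, was not past the test (adjusted p = 0.45).

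Trip10 encodes an adaptor that links Cdc42 to the actin cytoskeleton. It had a log2 signal of 5.28 with ENU at 4 h against 7.23, 7.23, 7.07 and 6.94. Trip10 fell by 1.95 (SE 0.28, limma, adjusted p = 0.0499), a call lost without any 1 of the 3 other control sets (adjusted p = 0.25 to 0.26), and its later ratios were -0.23, -0.09 and 0.13. At 20 h ENU was still below all 4 controls, by less, with 8.15 against 8.36 to 8.87 for Lpp and 6.95 against 7.18 to 7.29 for Trip10. At 14 and 28 days both genes lay among the controls.

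Against the mean of the 4 saline controls 12 probe sets passed at 4 h (0.0752%), 4 higher and 8 lower, and the lower ones again included Lpp and Trip10. The others named below were chosen after their values were seen. Cadm1, a cell adhesion gene of 332 kb, had a log2 signal of 5.95 with ENU against 7.66, 7.40, 7.67 and 7.67 in the controls, and fell by 1.65 (limma, adjusted p = 0.000806). Its other 3 probe sets had ratios of -0.76, -0.90 and 0.16 to the own control and did not pass, so the probe sets of this gene disagreed. Nrp1, the co-receptor for VEGF and semaphorins, fell by 1.36 and 1.48 in 2 probe sets (adjusted p = 0.0178 and 0.0235), and the second read 7.87 with ENU against 9.58, 9.16, 9.57 and 9.07. Stag1, a cohesin subunit gene of 361 kb, fell by 1.62 and Bcas3, a gene of 473 kb, fell by 1.40 (adjusted p = 0.0235 for both). In each of these the ENU pool was below all 4 controls at 4 h. With each control set left out in turn, Lpp, Trip10 and Cadm1 passed in all 4 fits, with adjusted p of 9.18e-05 to 0.00191, 0.00375 to 0.0134 and 0.00407 to 0.0201. Both calls of Nrp1 were lost without the ENU or the DPN control (adjusted p = 0.12 to 0.16), and Stag1 and Bcas3 passed without the DMN control alone (adjusted p = 0.0144 and 0.0289, and 0.059 to 0.19 otherwise). Another Bcas3 probe set had a ratio of 0.03 to its own control, so the probe sets of this gene also differed. Adam15, a metalloprotease gene of 10.4 kb, was at the floor with ENU at 4 h and at 28 days and fell by at least 1.52 and 1.61 (adjusted p = 0.0228 and 0.0271), though in none of the 4 fits without 1 control set (adjusted p = 0.057 to 0.26), while its other probe sets had ratios of 0.19 and -0.36 at 4 h. Lrp1, the large endocytic receptor of hepatocytes, had 9.14 with ENU at 4 h against 10.29, 9.93, 9.99 and 9.92, a ratio of -1.15 to its own control that did not pass (adjusted p = 0.22).

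**Figure D3:**
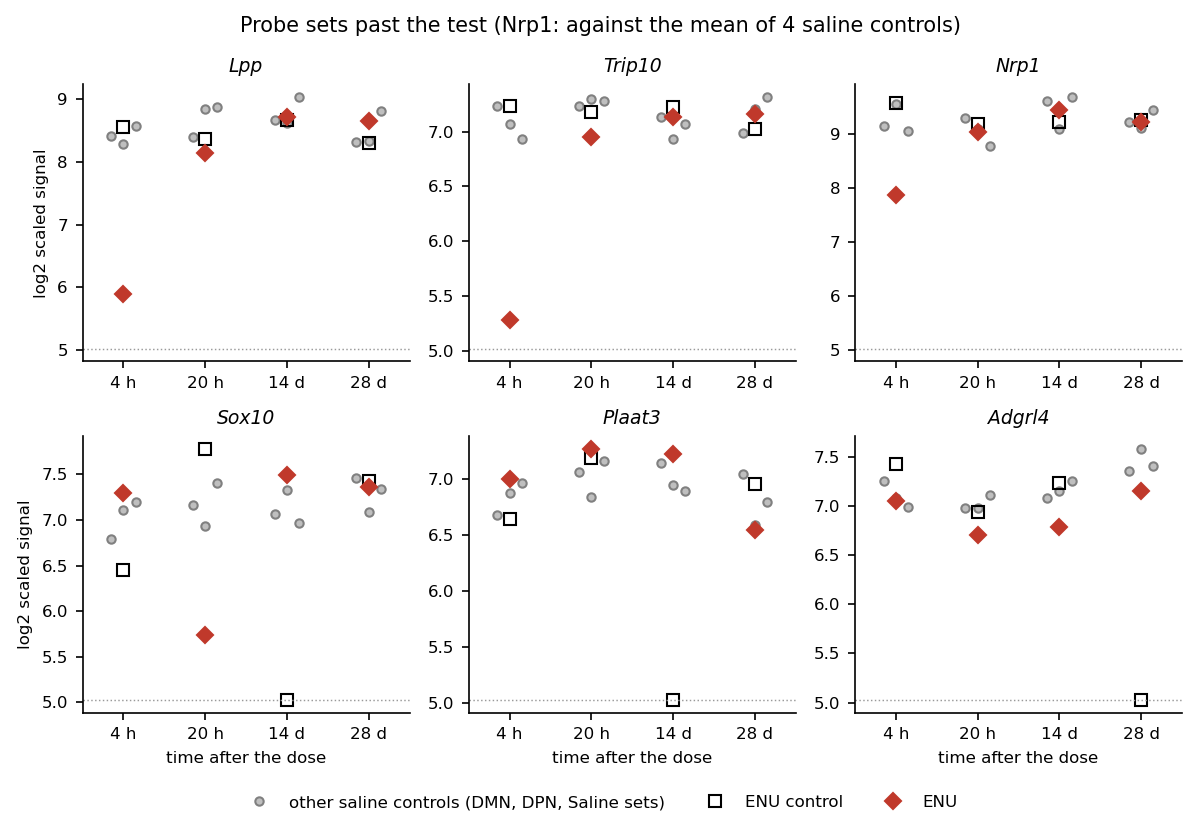
Log2 scaled signal (vertical axis) of 6 probe sets that passed the test, at the 4 times (horizontal axis), 1 pool of 5 mice per point, with symbols as in the plot of p53 genes. Lpp, Trip10 and Nrp1 were low with ENU at 4 h (5.89, 5.28 and 7.87), whereas for Sox10 and Plaat3 at 14 days and Adgrl4 at 28 days the own control was at the floor of 5.02 and ENU lay among or near the other controls.

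Several of these genes are long, so the ratio at 4 h was set against the length of the gene from its first to its last annotated base in RefSeq. Over 9617 genes Spearman's rank correlation of ratio and length was -0.227 at 4 h for ENU against its own control. Against the DMN, DPN and Saline controls it was -0.139, -0.173 and -0.209, while the 6 pairs of saline controls of 4 h gave -0.0944 to 0.0947. The relation to the own control was the steepest of the 4, and all 4 lay outside the range of the saline pairs. In the 4809 genes of higher signal the value was -0.312 against the own control and -0.164, -0.240 and -0.276 against the DMN, DPN and Saline controls, while the saline pairs gave -0.148 to 0.162. The value against the DMN control was thus close to the edge of the saline pairs. The tenth of genes with the shortest spans, up to 4.02 kb, had a median ratio of 0.15, and 33.8% of them lay lower. The tenth with the longest spans, over 107 kb, had a median of -0.20, and 67.9% lay lower. Genes are not independent replicates, all ratios to 1 control share that array, and no p is given.

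At later times the relation was weaker. The correlation was -0.0627 at 20 h, 0.0192 at 14 days and 0.00918 at 28 days, where saline pairs reached -0.0608, 0.0257 and 0.0680. RNA integrity was read from probe sets for the 3′ and 5′ ends of 2 control transcripts. Their log2 ratios of 3′ to 5′ signal at 4 h were 0.08 for Gapdh and 0.76 for actin with ENU, and -0.26 to 0.34 and 0.48 to 1.28 in the 4 saline controls. The own ENU control had the highest value of both, 0.34 and 1.28, and was also the control that gave the steepest relation to length. The part of RNA integrity in the relation was not tested. At the same time DPN at 250 mg/kg had a correlation of -0.281 and DMN at 5 mg/kg one of -0.114, each against its own control. Lpp had a ratio of -1.68 with DPN and -0.05 with DMN at 4 h, and -2.71 and 0.26 at 20 h. The doses differ, so these values stand side by side without a comparison.

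**Figure D4:**
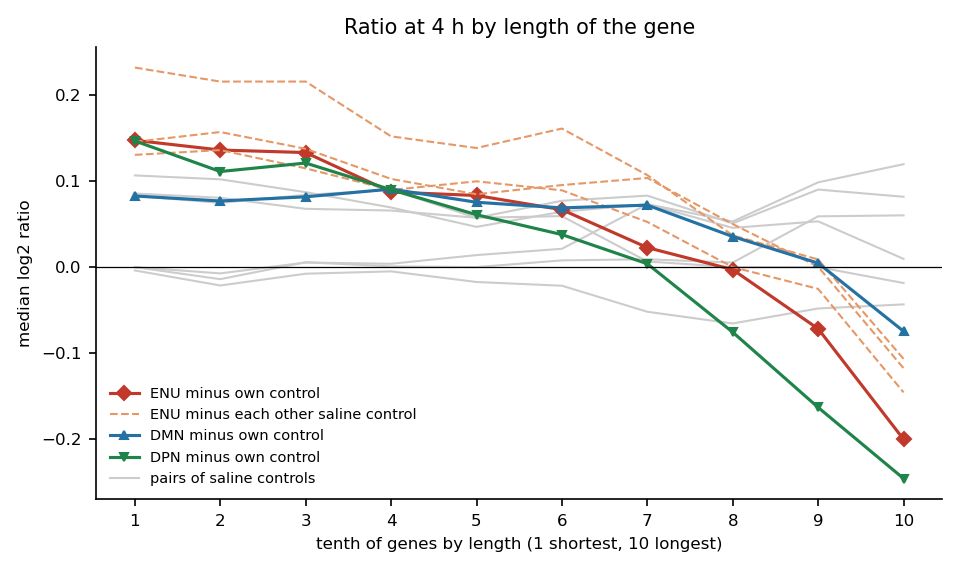
Median log2 ratio at 4 h (vertical axis) in 10 equal groups of 9617 genes ordered by length (horizontal axis, 1 shortest, 10 longest), where solid coloured lines are ENU, DMN and DPN against their own controls, dashed lines ENU against each other saline control and grey lines pairs of saline controls. ENU went from 0.15 in the shortest to -0.20 in the longest group, and the saline pairs lay between -0.04 and 0.12 in the longest.

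Genes of fasting and of glucocorticoid action formed another early group. Of 21 measured of 22, 8 lay at least 2-fold above their own control at 4 h (2.04% of all genes did) and 1 below it (1.79%), and 14 lay above all 4 controls (30.3%). The list's median was 0.91 against the own control, but 0.83, 0.27 and 0.47 against the DMN, DPN and Saline controls, and saline pairs reached 0.34. The size of the group's difference therefore depended on the control. Ppp1r3c, which targets protein phosphatase to glycogen, had a log2 signal of 11.10 with ENU against 9.71, 9.88, 9.72 and 9.41, a ratio of 1.40. Fkbp5, an immunophilin gene induced by glucocorticoids, had 10.26 against 8.91, 8.70, 9.48 and 9.92. Tsc22d3, Tat and Per1, further glucocorticoid targets, had ratios of 1.29, 1.03 and 1.20, and Irs2, an insulin signalling adaptor, had -1.08. No member passed the test at 4 h, and the list's medians later were 0.07, 0.36 and 0.16.

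Plin5 encodes a protein that coats lipid droplets in oxidising tissues. It had a log2 signal of 9.01 with ENU at 4 h against 6.95, 7.37, 7.69 and 8.16, above every control. The ratio of 2.06 had an adjusted p of 0.16. Of 23 measured immediate early genes 4 lay 2-fold higher at 4 h (2.04% of all genes did). The list's median was 0.54 against the own control and 0.21 against the mean of the 4 controls. Saline pairs reached 0.32 for this list.

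At 20 h no probe set passed against the own control with limma (0% of 15965, while 560 had an unadjusted p under 0.05). Besides the p53 arrest and feedback genes, which lay higher, the lists with the medians farthest from 0 were those of cholesterol and fatty acid synthesis, which lay lower. Growth hormone and sex-biased liver genes had a median of -0.35 against the own control, where saline pairs reached 0.22. Against the DMN, DPN and Saline controls it was -0.31, -0.15 and -0.03, and against the mean of 4 it was -0.22. The size of this difference thus depended on the control. The promoters of 2 cholesterol synthesis genes are shown because sterols control such genes through SREBP, which binds a sterol element, and NF-Y, which binds the CCAAT box beside it. They are from RefSeq on GRCm38.p6, each the 250 bases before the start on the plus strand, at chr13:119690101-119690350 for Hmgcs1 and chrX:72918271-72918520 for Nsdhl. Capitals mark TCACCCCAC and CCAAT, or ATTGG where the box is on the other strand.
Hmgcs1: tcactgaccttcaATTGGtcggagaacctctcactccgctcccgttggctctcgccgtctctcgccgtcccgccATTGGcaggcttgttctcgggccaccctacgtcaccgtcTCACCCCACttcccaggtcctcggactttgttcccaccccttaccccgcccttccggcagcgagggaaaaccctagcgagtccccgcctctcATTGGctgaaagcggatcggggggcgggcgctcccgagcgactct
Nsdhl: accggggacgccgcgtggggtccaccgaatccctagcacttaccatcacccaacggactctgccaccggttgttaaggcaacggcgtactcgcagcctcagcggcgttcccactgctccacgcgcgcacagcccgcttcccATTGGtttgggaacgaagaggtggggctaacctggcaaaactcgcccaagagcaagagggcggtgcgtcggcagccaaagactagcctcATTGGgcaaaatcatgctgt
Hmgcs1, which makes the HMG-CoA used by the pathway, held 3 CCAAT boxes and 1 TCACCCCAC. Nsdhl, an enzyme that removes methyl groups from sterol intermediates, held 2 CCAAT boxes. On both strands CCAAT occurred in 9314 of 27025 promoters (34.5%) and TCACCCCAC in 126 (0.466%). Of the 16 listed cholesterol synthesis genes with a promoter in the table, 15 held CCAAT and 1, Hmgcs1, held TCACCCCAC. No binding was measured.

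Nsdhl had a log2 signal of 9.43 with ENU at 20 h against 10.93 in its own control and 10.53, 10.14 and 10.64 in the others. Fdps, which encodes farnesyl diphosphate synthase, had 9.42 against 11.24, 11.12, 10.56 and 11.34. Both were lower with ENU than in each of the 4 controls. The ratios were -1.49 and -1.82, with adjusted p of 0.89 and 1. Pmvk, the kinase of phosphomevalonate, had a ratio of -2.02, Hmgcs1 -1.33, Sc5d -1.22 and Idi1 -1.11. Of 19 measured of 24 cholesterol synthesis genes, 18 lay lower than the own control, 9 of them at least 2-fold (1.54% of all genes did), and 14 lay below all 4 controls (15.7% of all genes). The list's median was -0.93 against the own control, -0.43 against the DPN control and -0.82 against the mean of 4. Saline pairs of 20 h reached 0.60. No member passed the test.

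Fatty acid synthesis genes ran alongside. Fasn, the fatty acid synthase, had a log2 signal of 9.57 with ENU at 20 h against 11.24, 10.47, 10.46 and 9.85. Thrsp, a lipogenic regulator that follows feeding and thyroid hormone, had 10.46 against 12.75, 11.84, 12.36 and 11.04. ENU was the lowest in both, while the Saline control lay closer to ENU than to the own control. The ratios were -1.67 and -2.30, with adjusted p of 0.89 and 1. Acacb, the acetyl-CoA carboxylase at mitochondria, had a ratio of -1.95, and Me1, Acss2, Elovl5, Acly and Pklr, which supply carbon and reducing power or elongate the chain, had -1.54, -1.44, -1.35, -1.18 and -1.13. All 20 measured of 21 genes lay below the own control, 8 of them at least 2-fold (1.54% of all genes did). Below all 4 controls lay 13 (15.7% of all genes). The median was -0.81 against the own control, -0.36 against the Saline control and -0.65 against the mean of 4, and saline pairs reached 0.61. No member passed the test. At 4 h the medians of the cholesterol and fatty acid lists were -0.02 and -0.05.

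Other genes differed at 20 h against the mean of the 4 saline controls, where 8 probe sets passed (0.0501%), 5 higher and 3 lower. Besides Ccng1 and Phlda3, Exoc4, an exocyst subunit gene, rose by 1.18 (limma, adjusted p = 0.0415). Dio1, the deiodinase that activates thyroid hormone, had 8.61 with ENU against 9.94, 10.08, 10.10 and 9.73 and fell by 1.35 (adjusted p = 0.0415). Cd207, which encodes langerin of dendritic cells, had 5.14 against 7.26, 6.87, 7.20 and 6.91 and fell by 1.92 (adjusted p = 0.0118). Dio1 and Cd207 were each below all 4 controls. A probe set without a gene name here, 1417185_at, rose by 1.53 at 20 h (adjusted p = 0.0467) and by 2.05 at 14 days (adjusted p = 0.00744), with 10.24 and 10.36 with ENU and 8.06 to 9.02 in the 8 controls of these times. It was the 1 probe set that passed at 14 days against this reference. The Saline control set includes the array of doubtful label. Without this set at all 4 times Ccng1, Exoc4, Dio1, Cd207 and probe set 1417185_at still passed at 20 h (limma, adjusted p = 0.0026 to 0.044). Phlda3 did not (adjusted p = 0.062). Without the DPN control none of the 8 passed (adjusted p = 0.069 to 0.34), and without the ENU control the first Ccng1 probe set alone did (adjusted p = 0.0116). Without the DMN control Exoc4, Dio1 and the unnamed probe set did not (adjusted p = 0.13, 0.063 and 0.071). The call of 14 days was lost without the ENU or the DPN control (adjusted p = 0.062 and 0.060). Exoc4, Dio1, Cd207 and probe set 1417185_at were singled out after their values were seen.

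Some immune and endothelial genes also lay lower with ENU in the first day. Ighm, the heavy chain of immunoglobulin M, had a log2 signal of 6.71 with ENU at 20 h against 8.07, 7.73, 7.87 and 7.49. Cd74, the invariant chain of antigen-presenting cells, had 7.45 against 8.53, 8.07, 8.42 and 8.39. Both lay below all 4 controls, with ratios of -1.36 and -1.08 that did not pass the test. Yet of the 15 measured lymphocyte markers 2 were 2-fold lower at 20 h (1.54% of all genes were), and the list's median ratio was 0.00. In bulk liver, fewer cells of a type and less RNA per cell cannot be told apart. Of 14 measured sinusoidal endothelial markers, 9 lay below all 4 controls at 4 h and 10 at 20 h, where 15.2% and 15.7% of all genes did. The medians of this list were -0.28 and -0.29, none passed the test, and saline pairs reached 0.25 and 0.24.

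Cyp4a14, the fatty acid hydroxylase that PPAR-alpha induces, had the largest single ratio named at 20 h. Its log2 signal was 9.74 with ENU and 5.03, 5.95, 5.36 and 7.95 in the controls. The ratio was 4.72 (SE 1.49) with an adjusted p of 1. Without the Saline control set, whose 20 h array was the highest of the 4, it was the 1 probe set that passed at 20 h (limma, adjusted p = 0.0479). Of 23 measured PPAR-alpha and fatty acid oxidation genes, Cyp4a14 was the 1 that lay 2-fold above the own control at 20 h. The median of that list was 0.09, and saline pairs reached 0.06. Among 29 measured acute phase genes 7 lay 2-fold above the own control at 20 h (1.3% of all genes did). The list's median was 0.08 against the own control and -0.06, -0.04 and 0.38 against the DMN, DPN and Saline controls. Saline pairs reached 0.41 for this list. Lcn2, an iron-binding acute phase protein, had 9.76 with ENU, 5.90 in its own control and 8.49, 10.90 and 7.06 in the others. The own control was the lowest of the 4, and ENU lay within their range. Ctrb1, which encodes a digestive enzyme of the pancreas, lay at or near the floor with ENU at 4 h and 20 h (5.02 and 5.06) and between 6.97 and 7.44 in the 8 controls of these times. The gene was chosen after its values were seen. Of 8 measured pancreas markers 3 were below all controls at each of these times, where 15.2% and 15.7% of all genes were.

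At 14 days 6 probe sets passed against the own control (0.0376%), all higher with ENU, of genes Sox10, Plaat3, Zdhhc5, Tmem134 and Nfatc1 and of 1 without a name. In each the own control was the lowest of the 4 controls. Nfatc1 had a log2 signal of 7.12 with ENU, 5.02 in its own control and 6.25, 6.37 and 6.60 in the others. The unnamed probe set had 7.64 against 5.02 and 6.96, 6.81 and 6.90. In both ENU lay above all 4 controls. Sox10, a transcription factor of neural crest cells, had a log2 signal of 7.49 with ENU, the floor of 5.02 in its own control, and 7.07, 7.33 and 6.97 in the others. Plaat3, a phospholipase and acyltransferase gene, had 7.23 against 5.02 and 7.15, 6.95 and 6.90. Zdhhc5, a palmitoyltransferase gene, had 7.38 against 5.20 and 7.14, 7.28 and 7.76. Tmem134 had 7.10 against 5.02 and 6.73, 6.80 and 6.97. For Sox10, Plaat3 and Tmem134 the ENU pools also lay above all 4 controls, but near the DMN, DPN and Saline controls. For Zdhhc5 the ENU pool lay within the range of the controls. The ratios were at least 2.47 and 2.21 for Sox10 and Plaat3 and 2.18 for Zdhhc5 (limma, adjusted p = 0.0243 for each). None of these genes passed against the mean of the 4 controls, or against the own control once the DMN, DPN or Saline control was left out of the spread. The call at 28 days (0.00626%) was alike: Adgrl4, an adhesion receptor gene of endothelium, had 7.15 with ENU, the floor in its own control and 7.35, 7.58 and 7.41 in the others (ratio at least 2.13, adjusted p = 0.0277), and its other probe set had a ratio of 0.18. ENU was thus below 3 of the 4 controls for a probe set that passed as higher. Against the mean of the 4 controls Adam15, given above, and a probe set without a gene name, 1415896_x_at, passed at 28 days. The latter had 9.60 with ENU against 7.51, 7.57, 7.51 and 7.47 and rose by 2.08 (limma, adjusted p = 0.0271). It passed without the Saline control set (adjusted p = 0.0162) and not without the ENU, DMN or DPN set (adjusted p = 0.12 to 0.13). It was chosen after its values were seen.

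The cholesterol synthesis genes, which lay lower at 20 h, had a median of 0.73 against the own control at 14 days, with 9 of 19 at least 2-fold higher (3.2% of all genes) and 10 above all 4 controls. Against the DMN control the median was 0.09, and saline pairs of 14 days reached 0.76. Sqle, the squalene epoxidase, had a log2 signal of 8.35 with ENU against 6.47, 8.01, 7.02 and 7.39. It exceeded the DMN control by far less than the own control. Interferon-stimulated genes differed less but more evenly: 16 of 22 measured lay above all 4 controls at 14 days (24.1% of all genes). Their median was 0.40 against the own control and 0.22, 0.39 and 0.29 against the DMN, DPN and Saline controls. Saline pairs reached 0.19 for this list, and the median over all genes was 0.11 against the own control. Ifi35, Usp18 and Ifit3 had ratios of 0.93, 0.82 and 0.77, and no member lay 2-fold away from the own control or passed the test. Against the mean of the 4 controls 2 members lay at least 2-fold higher, as did 73 of all 10755 genes. At 28 days the medians of the interferon, cholesterol and fatty acid lists were 0.16, 0.00 and 0.18.

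Over the whole array, the number of probe sets at least 2-fold away from the own control was 743 at 4 h, 534 at 20 h, 1075 at 14 days and 398 at 28 days, or 4.05%, 2.91%, 5.86% and 2.17% of 18349. Pairs of saline controls differed as much, with 516 to 720, 457 to 703, 552 to 1360 and 421 to 628 probe sets. Of the counts against the own control, only that of 4 h was above every saline pair of its time, and that of 28 days was below every pair. Against the DMN, DPN and Saline controls the counts were 862, 714 and 859 at 4 h and 624, 662 and 839 at 20 h. They were 625, 977 and 432 at 14 days and 646, 462 and 640 at 28 days. The place of a count among the saline pairs thus depended on the control. At 14 days 691 probe sets were higher and 384 lower, but 411 and 824 when arrays were scaled by their 75th percentile. The median ratio of all probe sets at 14 days was 0.10 with the median scaling and -0.01 with the other, so ratios near 0 at that time carry this shift.

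**Figure D5:**
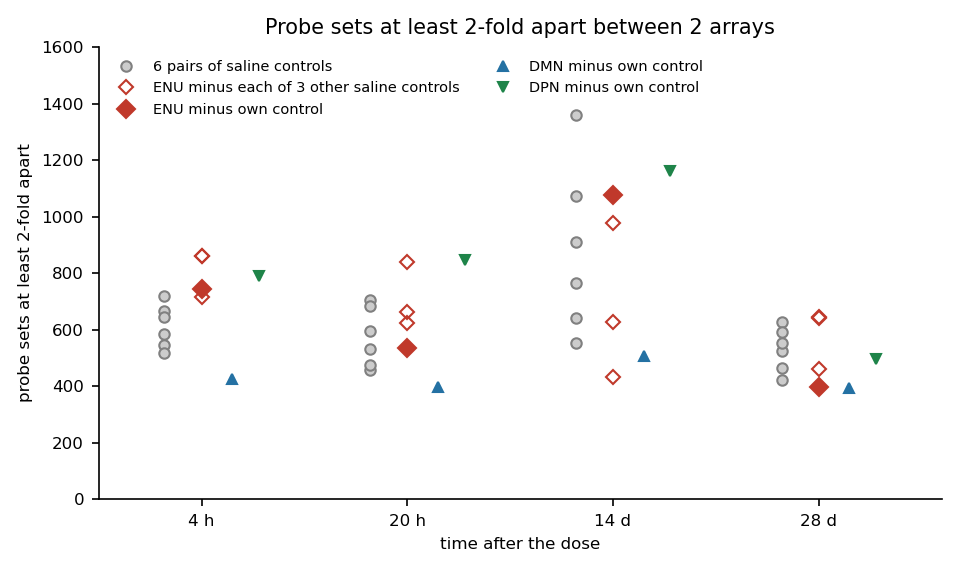
Number of probe sets at least 2-fold apart between 2 arrays (vertical axis) at the 4 times (horizontal axis), for ENU against its own control (filled diamonds), ENU against each other saline control (open diamonds), the 6 pairs of saline controls (grey circles) and DMN and DPN against their own controls (triangles). The ENU counts against the own control, 743, 534, 1075 and 398, lay above the saline pairs at 4 h, among them at 20 h and 14 days and below them at 28 days.

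Few genes kept their difference over all 4 times. The mean ratio over the times was tested with limma on the 4 ratios and no probe set of 16104 passed (598, or 3.71%, had an unadjusted p under 0.05). The exact sign-flip test over 4 ratios cannot give a p below 0.125. Cdkn1a had a mean ratio of 2.56 (SE 0.41, adjusted p = 0.50). Of all genes 6.26% lay above and 3.14% below the own control at all 4 times. At least 1.5-fold higher at every time were 4 of 10755 genes (0.0372%): Cdkn1a, Gadd45g, Cdk20 and Gm6958. At least 1.5-fold lower at every time was Kcna1 (0.0093%). Gadd45g, a stress gene of growth arrest, had ratios of 0.77, 1.89, 1.68 and 0.67, but its ENU value was above all 4 controls at 20 h alone. Gm6958 had log2 signals of 6.58, 8.31, 5.76 and 6.04 with ENU while all 16 saline controls were at the floor, and it could not be tested under the filter. Cdk20 and Kcna1, whose values were at the floor in many pools, overlapped the controls at 3 of the 4 times.

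The ratios of the first day were also set against those of the later times in 1 fit. No probe set of 15965 differed between them (721, or 4.52%, had an unadjusted p under 0.05), nor between 4 h and 20 h (761, or 4.77%), by limma. Cdkn1a had a difference of 2.20 (SE 0.73) between the mean of the first-day ratios and that of the later ones, Ccng1 1.27 (SE 0.31) and Trp53inp1 1.60 (SE 0.45), with adjusted p of 0.998, 0.804 and 0.973. A decline of these p53 genes after the first day is therefore a description of these pools. At least 2-fold higher at both 4 h and 20 h were 20 genes (0.186%), and lower 7 (0.0651%).

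DMN at 5 mg/kg and DPN at 250 mg/kg, each against its own saline control, gave the following values beside ENU, with no comparison since doses differed. Cdkn1a had ratios of 2.02 with DMN and 4.38 with DPN at 4 h, and of 4.69 and 5.67 at 20 h. Ccng1 had 1.22 and 1.73 at 4 h, and 2.52 and 2.82 at 20 h. At 14 and 28 days Cdkn1a had 0.50 and 1.66 with DMN and 3.84 and 2.87 with DPN. The p53 arrest list had medians of 0.47, 0.65, 0.03 and 0.00 with DMN over the 4 times, and of 1.02, 0.56, 0.55 and 0.08 with DPN. The DMN control of 4 h was the highest saline control for Cdkn1a, at 7.75 against 5.70 to 6.34 in the others. The list's median signal was also highest there, at 6.83 against 6.38 to 6.46, which lowers the DMN ratios of 4 h. The lipid lists had medians at 20 h of -0.22 and -0.68 for cholesterol and -0.23 and -0.75 for fatty acid synthesis with DMN and DPN. In Trip10 the 4 h ratios were 0.09 with DMN and 0.18 with DPN against -1.95 with ENU.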

How the data were processed

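The authors deposited linear probe-set signal intensity of 52 Affymetrix mouse arrays in 1 table of 22690 probe sets, with 0 missing values and 0 columns left unused. The paper names the array Mu74A V2, but the probe-set names belong to another Affymetrix mouse array. Software, scaling and genome build were not stated in the sources used here. The median intensity of an array was 17.9 to 205 over the series and from 40.5 to 89.9 over the 8 arrays of ENU and its controls.

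From these intensities, 64 control probe sets were left out, each array was divided by its median, values were multiplied by the mean of the medians (76.6), set to a floor at the 30th percentile of all scaled values (32.5) and put on the log2 scale. Symbols came from the platform annotation (20380 probe sets had 1 symbol, 691 several and 1555 none). A gene was its probe set with the highest mean among the 18349 that exceeded the floor in 4 or more of 52 arrays, which gave 10755 genes. The log2 ratio was the ENU array minus the ENU control of the same time. It was tested with limma 3.58.1 in R 4.3.3 (lmFit, eBayes with a mean-variance trend) on 4 ENU and 16 saline arrays. Coefficients for the ENU array, its control and the other 3 controls of each time left 8 residual degrees of freedom. Benjamini-Hochberg adjustment ran over the 15965 probe sets that exceeded it in 10 or more of the 20 arrays, with a threshold of 0.05. The mean of 4 saline controls as the reference left 12 residual degrees of freedom. The mean ratio over times was tested on the 4 ratios (3 residual degrees of freedom). The fits were tested on simulated data.

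Gene lengths and promoters came from RefSeq tables. The genes named were the members of p53 lists, for each time the largest ratios each way among called genes or, failing these, among genes outside the range of the 4 saline controls, genes at least 1.5-fold away at every time, up to 4 members of each list and genes the paper names. The text gives a part of them, and says where a gene was chosen after its values were seen. Fas, Apaf1, Cd74, Sqle and Lcn2 are given as members of their lists. The members, lists and tests were chosen with earlier results of these data known. Figures used matplotlib 3.10.9 in Python 3.11.15 with pandas 2.3.3 and numpy 2.4.6. The qPCR and rat experiments were not analysed here.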

Additional observations from a re-analysis of the deposited data

Results flagged for a closer look

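In the saline controls of 20 genes whose single arrays were examined, 80 groups of 4 arrays were searched for an array far from the other 3, by its gap to the nearest one as a share of the whole range. The limit was Dixon's critical value for 4 arrays, which chance passes in about 1 of 20 groups, and 8 groups passed it. The ENU control was the array that stood apart in 2 of them, both behind a call. It was the lowest for Sox10 at 14 days (share 0.843, log2 signal 5.02 against 6.97 for the next) and for Adgrl4 at 28 days (share 0.911, 5.02 against 7.35). The Saline control was the highest for Lpp at 14 days (0.857, 9.03 against 8.68) and at 28 days (0.934, 8.82 against 8.33). It was also the highest for Cyp4a14 at 4 h (0.830, 8.34 against 5.59) and at 28 days (0.982, 6.98 against 5.06). The DMN control was the highest for Btg2 at 28 days (0.841, 7.36 against 7.02), and the DPN control was the lowest for Nsdhl at 4 h (0.886, 9.65 against 10.27).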

How the results depend on the processing

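The number of probe sets called at 4 h (2) became 0 with quantile normalization, 1 with 75th percentile scaling or a floor at the 50th percentile, 8 with a floor at the 10th, 12 against the mean of the 4 saline controls, 112 with the wider filter of 4 of 52 arrays, 259 without a filter, and 0 with the spread of the same time alone. At 20 h (0) it was 2 with either other scaling, 8 against the mean, 56 with the wider filter and 142 without one. At 14 days (6) it was 33 and 0 with the lower and higher floor, 1 against the mean, 152 and 370 with the wider and no filter, and 0 with the spread of the same time. At 28 days (1) it was 2 with 75th percentile scaling, 0 with the higher floor, 50 and 110 with the wider and no filter, 2 against the mean and 0 with the spread of the same time. The filters admit probe sets at the floor in nearly all arrays, whose spread is near 0. Without 1 saline control set (leave-one-out) the calls ranged from 0 to 1 at 4 h, 0 to 1 at 20 h, 0 to 0 at 14 days and 0 to 0 at 28 days, so the 6 calls of 14 days and the call of 28 days were lost without the DMN, the DPN or the Saline control, both calls of 4 h without the DMN or the DPN control, and Trip10 without the Saline control, when Cyp4a14 was the call of 20 h. Between the first day and later 111 and 528 were called with the wider and no filter, and between 4 h and 20 h 82 and 310, and 1 with the lower floor. The call count for the mean ratio was 0 in every setting. Probe sets 2-fold apart at 4 h, 20 h, 14 days and 28 days numbered 2590, 2200, 3067 and 2043 with the lower floor and 265, 150, 367 and 70 with the higher, and 3007, 2083, 4452 and 1796 at 1.5-fold and 108, 92, 143 and 68 at 3-fold. Plin5 at 20 h had a ratio of 0.00 to the own control, which was -0.019 with 75th percentile scaling and -0.20 against the mean. Lpp stayed past the threshold in 8 of 12 settings and Trip10 in 5 of 12. The list medians, length relations and leave-one-out fits against the mean were alternatives chosen after seeing the data, and the rank correlation of ratio and length at 4 h stayed between -0.214 and -0.235 over scalings and floors. The cause of each change was not tested. No paired analysis was possible because each time held 1 ENU array and 1 ENU control, so pairs entered 1 fit only through the mean ratio over the 4 times, given above. Array number limits the precision.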
